A study of Mus musculus with 8 samples.

Results

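The comparison described here set clone 4 cells cultured with 10 ng/ml doxycycline against the same clone cultured without it, on 2 of the 8 arrays of the series. Both arrays carried the same pair of RNAs with the dyes exchanged, so there was 1 RNA sample on each side, and the 19413 features tested form the basis of all counts. Clone 4 is a single clone of bone marrow pro/preB cells from Pax5-/- mice. It carries a human Pax5 transgene (huPax5) behind a doxycycline-responsive promoter and a reverse tetracycline transactivator (rtTA), both brought in by retroviral transduction and selected with puromycin and histidinol. The RNA on the other side, also clone 4, had 0 ng/ml doxycycline and therefore shared the Pax5 knockout, both vectors, the IL-7 supplement and the layer of γ-irradiated OP9 stromal cells. Values of the same genes are set beside these from the pair at 300 ng/ml, for a few of them from the pair labelled 1000 ng/ml, and from Pax5sz2, Pax5-/- cells labelled as carrying rtTA alone and as treated with doxycycline, at a dose the labels do not give. All 4 comparisons share the clone 4 RNA without doxycycline as their label for the control, so they are not independent of each other. The cells are a mutant, cultured and transduced clone on a feeder layer, and the RNA was taken from the bulk culture, in which fewer cells of a type and less RNA per cell cannot be told apart.

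Pax5 is a paired-domain transcription factor that commits lymphoid progenitors to the B lineage. It switches on genes of the B cell receptor pathway, such as Blnk, and silences receptors and signalling genes of other lineages. Cells that lack it stop at the pro-B stage, keep growing with IL-7 on stroma and retain the capacity to form other blood lineages. In tetracycline-controlled systems the dose of doxycycline sets the occupancy of the transactivator, so a low dose asks how the cells respond near the bottom of the induction range. Interferon response genes, which take up much of the account below, are switched on when interferon receptors activate STAT proteins that bind short promoter elements.

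Each value is a log2 ratio of the 10 ng/ml RNA over the RNA without doxycycline, so that 1 is a 2-fold difference. The array with the 10 ng/ml RNA in Cy5 is called the Cy5 array, and the one with that RNA in Cy3 the Cy3 array; where a gene is given 2 ratios before a mean, the Cy5 array comes first. Each ± is the SD of the 2 arrays, which holds dye and hybridisation error and no biological spread. With 1 RNA sample a side there is no test, and a feature was counted when its ratio was at least 1, or at most -1, on both arrays.

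At 10 ng/ml, 122 features (0.628% of those tested) stood 2-fold or more above the control with both dyes, and 255 (1.31%) stood 2-fold or more below it, together 1.94%. Of these, 103 and 128 had a gene name, and the remaining 19 and 127 were known only by a clone, an accession or a predicted gene. At 1.5-fold the counts were 628 (3.23%) and 1047 (5.39%). The ratios of the arrays correlated across features with r = 0.84, genes not being independent replicates, and 0 features passed the size in opposite directions. Another 135 features passed on the higher side and 355 on the lower side on 1 array only. The balance between the directions depended on the scaling: with each array centred on its median instead of loess, 75 features were higher and 75 lower, so that the share of counted features on the higher side went from 32.4% to 50%. The named genes nearest to the limit on either side were Mx2 (1.01 and 1.15 on the Cy5 and Cy3 arrays) and Ifi202b (1.05 and 0.999). For lower genes they were Mfsd6 (-1.22 and -1.0003) and Zfp932 (-1.45 and -0.9996).

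**Figure D1:**
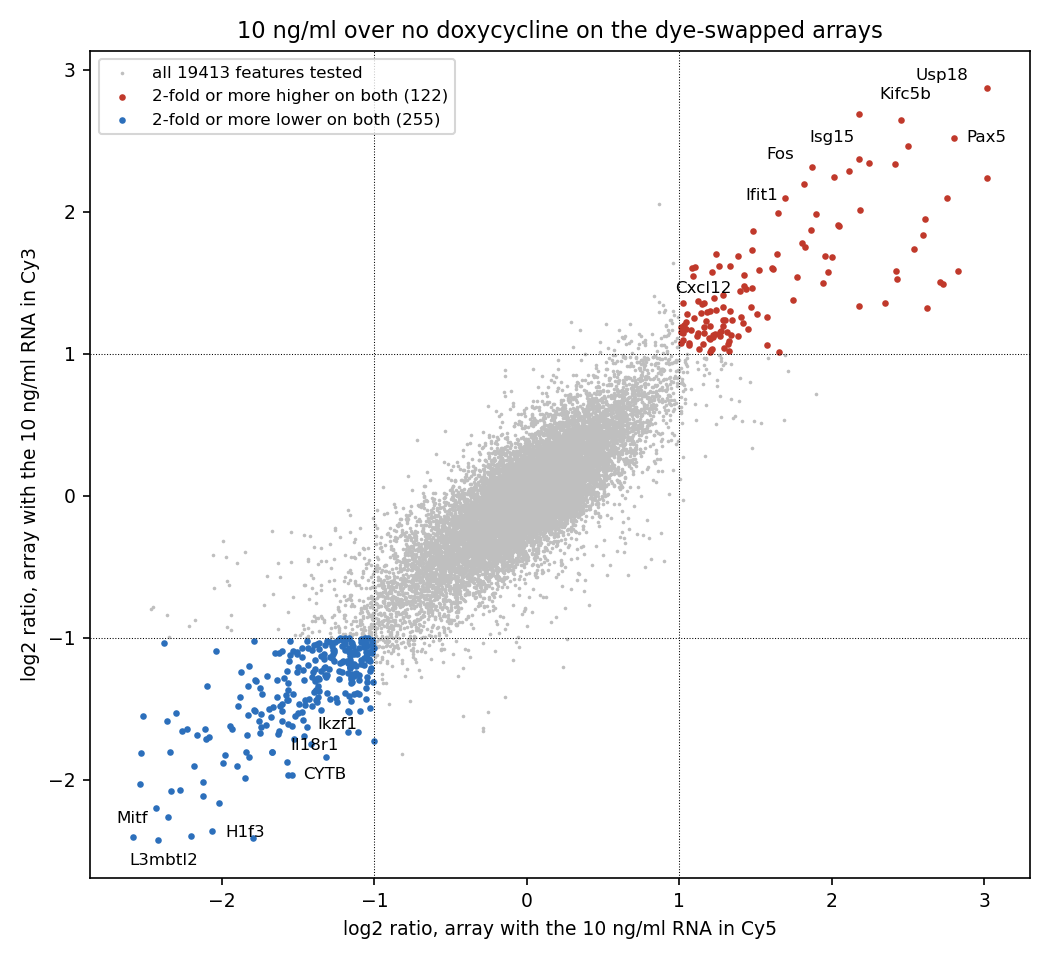
Log2 ratio of 10 ng/ml over no doxycycline for the 19413 features tested, with the Cy5 array on the horizontal and the Cy3 array on the vertical axis. Red points (122) were 2-fold or more higher with both dyes and blue points (255) at least 2-fold lower; dotted lines mark 2-fold, and the highest named gene, Usp18, sits at 3.02 and 2.87.

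Between 65.2% and 75.4% of probes were well above background in each RNA on these arrays, 41 and 45 spots were left out as outliers, and no spot was saturated. The Pax5 gene itself was read by 2 detected probes that differed. The probe with the brighter signal, from a clone at the locus (chr4:44546164-44546223, mm8), was at 2.80 and 2.52 (mean 2.66 ± 0.20), while the probe for the mouse coding transcript was at -0.070 and -0.15 (mean -0.11 ± 0.059). Since the transgene is the human gene and the mouse gene is disrupted, neither probe checks the labels. The clone-derived probe was also high in Pax5sz2 cells (3.02 ± 0.19), which carry no huPax5.

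Markers of the cell type were mixed. The surrogate light chain genes Vpreb1 and Igll1, which define pro-B cells, were not well above background in either RNA. The recombination genes Rag1 (-0.39 ± 0.090) and Dntt (-0.99 ± 0.027), the IL-7 receptor gene Il7r (-0.48 ± 0.21), Ebf1 (-0.96 ± 0.27), Cd79a (-0.74 ± 0.0068) and the early progenitor marker Cd93 (-0.10 ± 0.15) were detected in both. In the Pax5sz2 RNA, Vpreb1 and Igll1 were 7.88 and 5.65 above the clone 4 control, so Pax5sz2 is not matched to clone 4 in these genes. All 8 stromal markers were detected in both RNAs and all 8 were higher at 10 ng/ml, by 0.69 to 1.45, with a median of 0.97. Their log2 levels ran from 9.01 to 13.82 in the 10 ng/ml RNA and from 8.11 to 12.75 in the control. Of the markers of other blood lineages, Ncr1 and Tpsab1 were not well above background in either RNA. The 6 myeloid markers lay between -0.33 and 0.038, the NK marker Nkg7 was at -0.96 ± 0.052, the dendritic cell markers Itgax and Siglech at -0.97 ± 0.15 and -0.82 ± 0.081, and the mast cell marker Cpa3 at -0.89 ± 0.035.

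Among the lists, the interferon response targets had the most members past the size on the higher side, though the immediate early list had a higher median (0.68). Of 47 listed targets, 43 were on the array and 42 were detected. Of these, 12 were 2-fold or more higher with both dyes against 0.628% of all features, 0 were lower, and 37 lay above 0 on both arrays, as did 7604 of all 19413 features. The median of the list was 0.60, beside 0.017 for all features tested. On its arrays singly the list median was 0.70 and 0.63.

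Usp18, which strips the ubiquitin-like modifier ISG15 from proteins and damps interferon receptor signalling, had the highest ratio of any named gene: 3.02 and 2.87 (mean 2.94 ± 0.10). Its probe lies at chr6:121236114-121236173 (mm8). Isg15, the modifier itself, was at 2.18 and 2.37 (mean 2.28 ± 0.14). The array annotation places the Isg15 probe at chr17:45870420-45870479 (mm8), while the promoter of the gene is on chr4, so the probe's assignment is uncertain. Both arrays placed each gene more than 4-fold above the control, with little difference between the dyes.

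Members that bind viral RNA or block its translation formed a close group. Ifit1 was at 1.82 and 2.20 (mean 2.01 ± 0.27), and Ifit3 at 1.90 and 1.98 (mean 1.94 ± 0.059), with a second probe at 1.86 ± 0.0037. Zbp1, a sensor of Z-form nucleic acids, was at 2.05 and 1.90 (mean 1.97 ± 0.10). These genes lay between 1.82 and 2.20 on either array, and the Ifit genes belong to a family of similar sequences in which probes can share signal. The chemokine gene Cxcl10 was at 1.97 and 1.57 (mean 1.77 ± 0.28) and the oligoadenylate synthetase-like gene Oasl2 at 1.77 and 1.54 (mean 1.66 ± 0.17). Rtp4, a transporter-like protein induced by interferon, was at 1.24 and 1.70 (mean 1.47 ± 0.33).

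Other members past the size had smaller ratios. Cmpk2, a nucleotide kinase, was at 1.16 and 1.19 (mean 1.18 ± 0.016), with a second probe at 1.12 ± 0.13. Its neighbour Rsad2, which makes a chain-terminating nucleotide from CTP, was at 1.16 and 1.07 (mean 1.11 ± 0.062), with other probes at 1.26 ± 0.0042 and 1.18 ± 0.24. Mx2, a dynamin-like antiviral GTPase, was at 1.01 and 1.15 (mean 1.08 ± 0.099). All detected probes of Cmpk2, Rsad2 and Ifit3 passed the size.

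Just under the limit on 1 array were Irf7 (0.91 and 1.31 on the Cy5 and Cy3 arrays), Ifit2 (0.90 and 1.13) and Trim30a (1.27 and 0.89). Adar, Sp100 and Irf9 lay below 0 on both arrays, at -0.66 ± 0.061, -0.22 ± 0.21 and -0.20 ± 0.21. Adar, which edits double-stranded RNA, had a second probe at 1.06. The list was therefore not uniform, with means from -0.66 to 2.94.

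**Figure D2:**
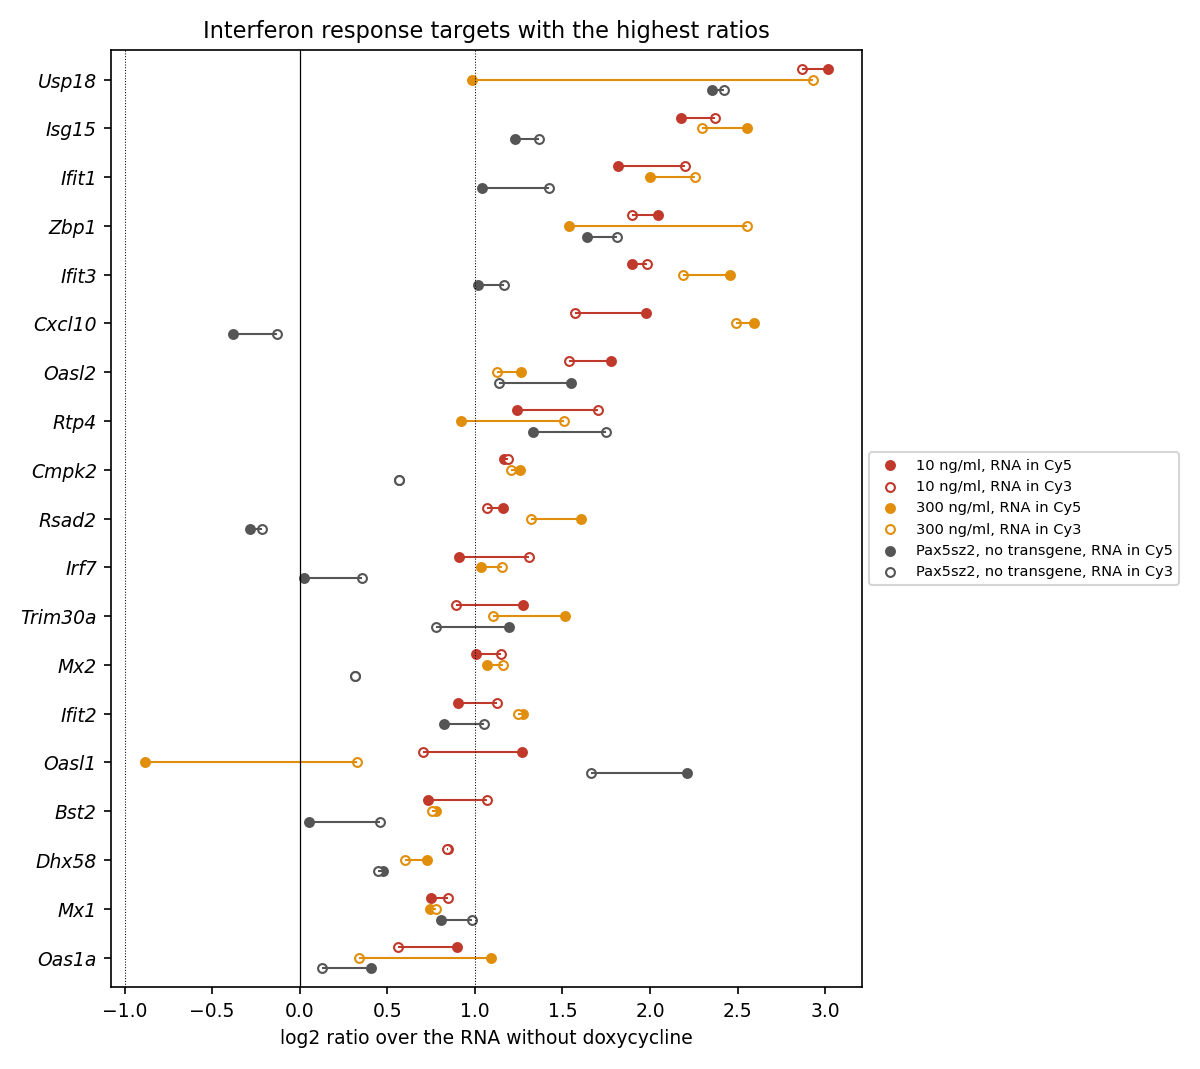
Log2 ratios over the RNA without doxycycline for 19 of the 20 interferon response targets with the highest mean at 10 ng/ml. Filled and open circles are arrays with the named RNA in Cy5 and Cy3, joined by a line, in red for 10 ng/ml, orange for 300 ng/ml and grey for Pax5sz2; dotted lines mark 2-fold. Cxcl10 and Rsad2 lie above 1 at both doses and below 0 in Pax5sz2, while Usp18 is above 2 in Pax5sz2 as well.

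The ligands, receptors and signalling members of the pathway did not share these ratios. Of 20 tested, 0 passed the size in either direction, with a list median of -0.041. The largest were Jak2, a receptor-associated kinase, at -0.50 ± 0.22, the transcription factor gene Irf1 at 0.49 ± 0.13 and Mavs, an adaptor of RNA sensing, at 0.48 ± 0.34. The interferon beta gene Ifnb1 was at 0.33 ± 0.16. Socs1, an inhibitor of cytokine receptors that interferons induce, was at 1.18 and 1.23 (mean 1.20 ± 0.038). In its list of SOCS and STAT5 feedback genes, Socs1 was the one member past the size among 14, beside the kinase genes Pim3 (0.75 ± 0.079) and Pim1 (-0.64 ± 0.20).

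Interferon-inducible GTPases divided. Of 14 tested, Iigp1, which attacks the vacuoles of intracellular parasites, was at 2.01 and 2.24 (mean 2.13 ± 0.16), and Gbp8, a guanylate-binding protein gene, was at -1.37 and -1.29 (mean -1.33 ± 0.060), with another probe at -0.83. The related Irgm1, Igtp and Irgm2 were at 1.12 ± 0.19, 1.12 ± 0.21 and 1.11 ± 0.23 without passing on both arrays, though another probe of Irgm1, at 1.26, did pass. Gbp9 and Gbp4 were at -0.78 ± 0.019 and -0.59 ± 0.014. The list median was 0.47. Among the 12 tested Ifi200 and inflammasome genes 0 passed, with Ifi202b at 1.02 ± 0.034, Ifi204 at 0.52 ± 0.081 and Ifi207 at 0.42 ± 0.038. The 18 antigen processing genes of MHC class I had a median of 0.17 and 0 past the size; Psme2 was at 0.63 ± 0.35, B2m at -0.58 ± 0.20 and Tap1 at 0.51 ± 0.45.

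Set beside the other RNAs, the interferon list had a median of 0.66 at 300 ng/ml with 13 members past the size, and of 0.36 in Pax5sz2 with 8. All were on the higher side, beside 264 and 437 of all 19413 features in those RNAs. Usp18 was at 1.96 ± 1.38 at 300 ng/ml, where its arrays were far apart, and at 2.39 ± 0.050 in Pax5sz2. Isg15 was at 2.43 ± 0.18 and 1.30 ± 0.10, and Cxcl10 at 2.54 ± 0.075 and -0.25 ± 0.18. On the arrays labelled 1000 ng/ml the list median was 0.22 with 2 past the size on the higher side, beside 387 of all 19413 features. The direction of that pair is not settled, because its arrays ran opposite to those at 300 ng/ml of the same dye orientation, and its values are given here as labelled.

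The promoter elements that interferon-activated factors bind can be read in reference sequence. RefSeq promoter windows (GRCm38.p6, 250 bases before to 50 after the start site) were matched for 7 of the 12 higher targets. The interferon-stimulated response element was searched as GAAA, any 2 bases and GAAA again, and the gamma-activated site as TTCNNNGAA, on both strands, with overlapping matches allowed. The response element was in 5 of the 7 windows, in 7 of 23 matched list members not past the size, and in 3.99% of the 27025 genes with a window (3.93% of the 12175 tested features that have one). The gamma-activated site was in 0 of the 7, in 6 of the 23, and in 9.55% of all. The windows with a match are shown from 10 bases before the outermost match to 10 bases after it, 5′ to 3′ on the gene's strand, with the response element in capitals, because they belong to 5 of the genes with the ratios above.
Isg15: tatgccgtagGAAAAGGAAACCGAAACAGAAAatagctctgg
Ifit1: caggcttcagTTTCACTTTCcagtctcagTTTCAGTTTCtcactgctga
Ifit3: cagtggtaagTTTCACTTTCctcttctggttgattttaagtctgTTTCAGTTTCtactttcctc
Cxcl10: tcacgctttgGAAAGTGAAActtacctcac
Rsad2: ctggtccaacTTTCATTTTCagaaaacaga
They lie at chr4:156200865-156200906 (minus strand), chr19:34640775-34640823 (plus), chr19:34583363-34583426 (plus), chr5:92349083-92349112 (minus) and chr12:26456553-26456582 (minus). Isg15 has 3 overlapping matches, whose near ends are 56 to 68 bases upstream of the start site. Ifit1 and Ifit3 have 2 separate matches each, all on the opposite strand, at 75 and 94 and at 112 and 146 bases. Cxcl10 and Rsad2 have 1 each, that of Rsad2 on the opposite strand, at 203 and 110 bases. Oasl2 and Cmpk2 had no match in these windows. A match is a string of letters and not a measured site.

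The immediate early genes also had several members past the size. They are transcription factors and regulators switched on within minutes of growth factor or stress signals. Of 27 tested, 7 were 2-fold or more higher with both dyes (0.628% of all features) and 0 lower, and the list median was 0.68. Fos was at 1.87 and 2.31 (mean 2.09 ± 0.31) and Jun, its partner in the AP-1 dimer, at 1.82 and 1.75 (mean 1.79 ± 0.051). The stress-induced factor gene Atf3 was at 1.96 and 1.69 (mean 1.82 ± 0.19). The zinc finger factor genes Egr1 and Egr2 were at 1.31 and 1.15 (mean 1.23 ± 0.12) and at 1.15 and 1.35 (mean 1.25 ± 0.14). These 5 genes stood more than 2-fold above the control with either dye.

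Cebpb, a bZIP factor of the inflammatory and myeloid response, was at 1.43 and 1.48 (mean 1.45 ± 0.036), with another probe at 1.07. The orphan receptor gene Nr4a1, an early target of antigen receptor signals, was at 1.22 and 1.03 (mean 1.12 ± 0.13). Klf2, a factor of lymphocyte quiescence, differed between the arrays (0.87 and 2.05, second probe 2.49). Btg2, an antiproliferative gene, was under the limit on 1 of them (1.20 and 0.86), with other probes at 1.33 and 1.27. Not all early genes were higher: Fosl2 was at -0.90 ± 0.91 (second probe 0.77), Btg1 at -0.55 ± 0.19 and Ier3 at -0.34 ± 0.12.

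Feedback inhibitors of the ERK kinase pathway that such signals induce were partly higher as well. Of 12 tested, 2 passed the size on the higher side (0.628% of all features) and 0 were lower, with a median of 0.23. Dusp6, a phosphatase of ERK, was at 1.33 and 1.62 (mean 1.48 ± 0.20), and Spry1, an inhibitor of receptor tyrosine kinase signals, at 1.33 and 1.30 (mean 1.32 ± 0.024). Dusp7, Dusp1 and Spry2 were at 0.94 ± 0.27, 0.91 ± 0.036 and 0.88 ± 0.11, short of the limit on at least 1 array. The Spred and Etv members stayed between -0.28 and 0.055.

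These genes had unlike values in the other RNAs. At 300 ng/ml, 4 of the early genes passed the size on the higher side, beside 264 of all 19413 features. Fos was at 1.42 ± 0.14, Jun at 2.36 ± 0.24 and Atf3 at 2.28 ± 0.33. Egr1 could not be counted there, since it had no value on the Cy5 array and was at 1.59 on the Cy3 array. In Pax5sz2 the list median was -0.29, with Atf3 at -1.06 ± 0.20, Nr4a1 at -0.99 ± 0.057 and Egr1 at -0.57 ± 0.13, against Jun at 1.08 ± 0.092. Dusp6 was at 1.67 ± 0.17 at 300 ng/ml and -0.41 ± 0.021 in Pax5sz2. The difference between the RNAs could not be tested with 1 sample each.

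Genes of the stromal feeder and of extracellular matrix were higher in the 10 ng/ml RNA. Of 37 tested, 4 were past the size (0.628% of all features) and 0 were lower. Above 0 on both arrays were 30, as were 7604 of all 19413 features, and the median was 0.57. Cxcl12, the chemokine with which stroma retains progenitors, was at 1.44 and 1.46 (mean 1.45 ± 0.013), with another probe at 0.90. Vcam1, an adhesion molecule of stroma, was at 1.20 and 1.20 (mean 1.20 ± 0.0024), though its second probe was at 0.12. The collagen gene Col3a1 was at 1.24 and 1.31 (mean 1.27 ± 0.047), with another probe at -0.036, and Ccn1, a secreted matrix protein that is also an immediate early gene, at 1.18 and 1.29 (mean 1.24 ± 0.081). The type I collagen genes Col1a1 (0.81 ± 0.18) and Col1a2 (0.83 ± 0.066), the matrix protein gene Sparc (1.03 ± 0.14) and the growth factor receptor gene Pdgfrb (0.91 ± 0.17) lay below the limit on at least 1 array. At the lower end of the list lay Acta2, smooth muscle actin, at -0.37 ± 0.043 and Cald1, an actin-binding protein, at -0.13 ± 0.069.

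Fabp4, a fatty acid carrier of adipocytes, into which OP9 cells can differentiate, was higher with all 3 of its probes, at 1.39 ± 0.16, 1.56 ± 0.018 and 1.21 ± 0.064. At 300 ng/ml the stromal list had a median of 0.62 with 9 members higher, beside 264 of all 19413 features. In Pax5sz2 its median was 0.017 with 4 higher and 2 lower, beside 437 and 567 of all features. Cxcl12 was at 1.75 ± 0.28 and 1.78 ± 0.12 in those RNAs, and Vcam1 at 1.86 ± 0.20 at 300 ng/ml, with 1.07 and 1.14 on the Pax5sz2 arrays. The stromal markers moved with the interferon and immediate early genes in the 10 ng/ml RNA, and their part in those ratios was not tested.

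**Figure D3:**
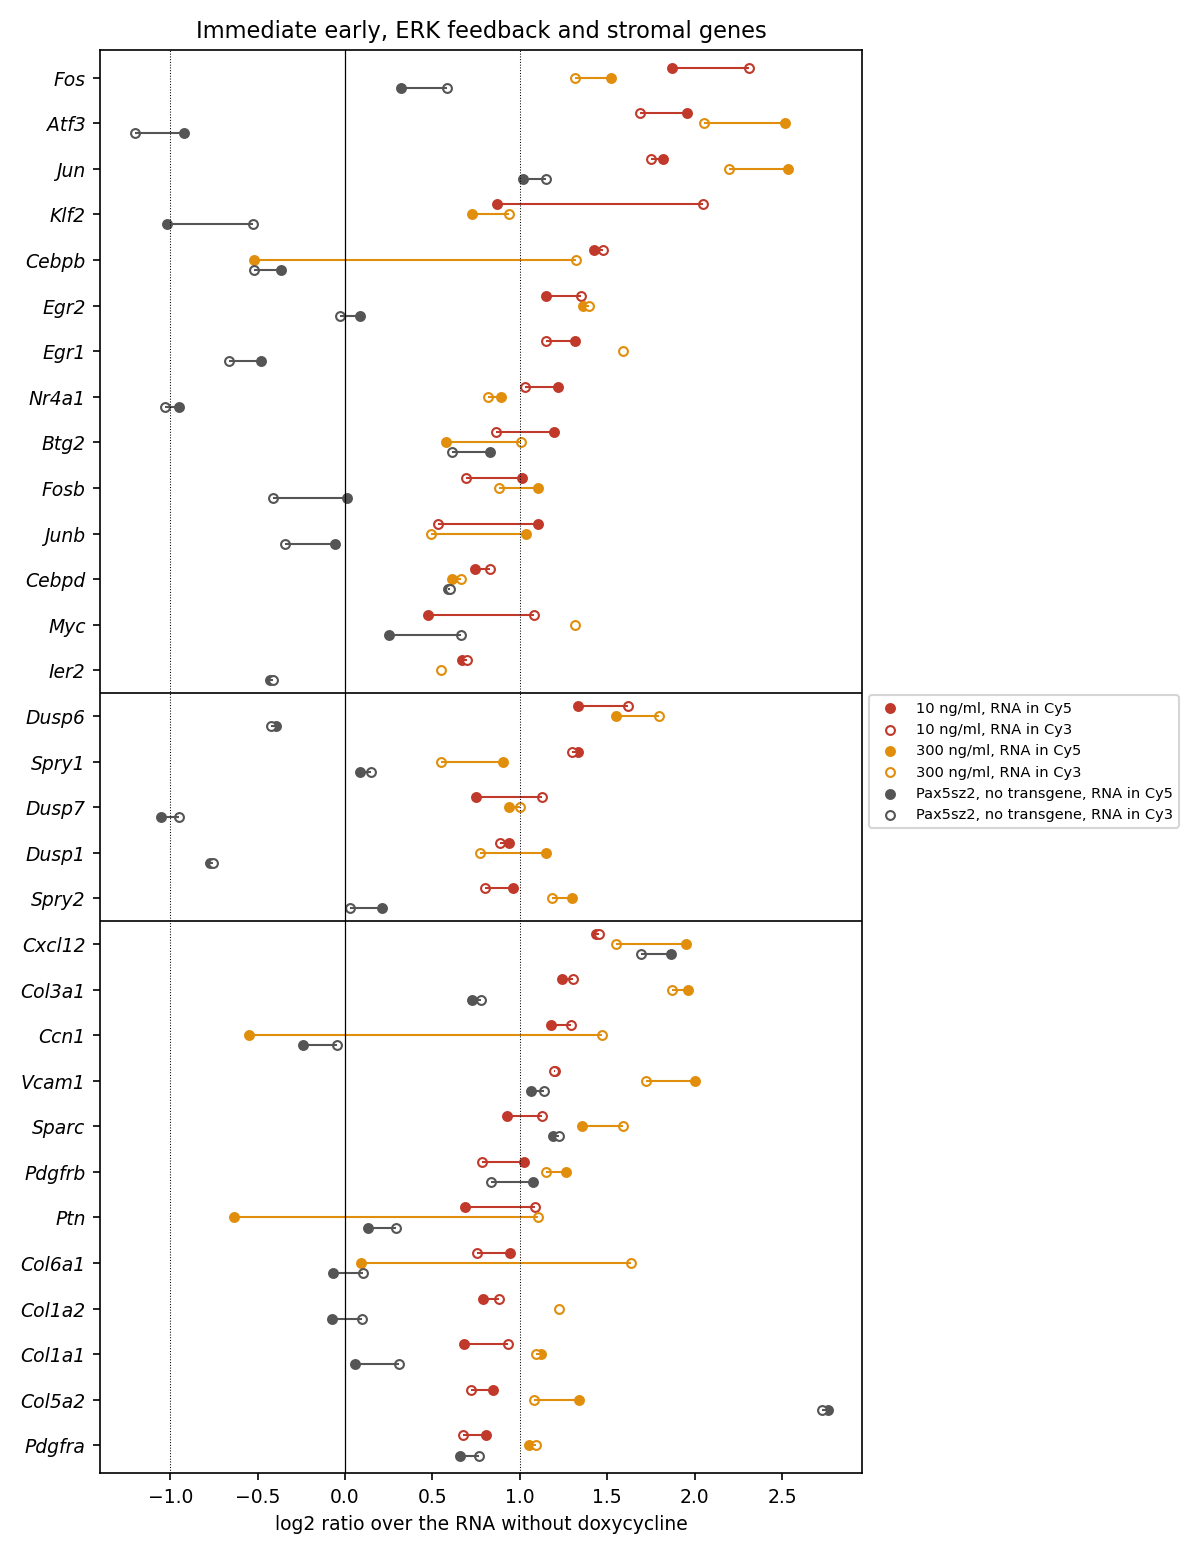
Log2 ratios over the RNA without doxycycline for immediate early genes (top), ERK feedback genes (middle) and stromal and matrix genes (bottom), each ordered by the mean at 10 ng/ml. Filled and open circles are arrays with the named RNA in Cy5 and Cy3; a gene with a single circle at 300 ng/ml had an outlier spot on the other array. Atf3 and Nr4a1 lie above 1 at 10 ng/ml and near -1 in Pax5sz2, whereas Cxcl12 and Vcam1 lie above 1 in all of the RNAs drawn.

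No gene of the list that Pax5 is known to activate passed the size upward at this dose. Of 27 tested, 0 were at least 2-fold higher (0.628% of all features) and 1 was lower (1.31%). On both arrays 11 were above 0 and 14 below 0, beside 7604 and 6968 of all 19413 features. The median was -0.10. Blnk, the adaptor of B cell receptor signalling, was at -0.90 ± 0.13, and Ikzf3, a lymphoid zinc finger factor, at 0.30 ± 0.059. Bst1, a stromal and lymphoid ectoenzyme, was the member past the size, at -1.13 and -1.09 (mean -1.11 ± 0.022), but at -0.98 with median centring, which ends that call. Id3, an inhibitor of E proteins, had the highest ratio, at 0.88 ± 0.13, and Ebf1, the factor that acts with Pax5, was at -0.96 ± 0.27. The sign of the median turned with scaling, to 0.066 with median centring.

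At 300 ng/ml, 7 of these genes were at least 2-fold higher and 0 lower, beside 264 and 472 of all 19413 features. Blnk was then at 2.62 ± 0.12, the complexin gene Cplx2 at 2.65 ± 0.039 against -0.83 ± 0.11 at 10 ng/ml, and Ikzf3 at 1.28 ± 0.26. For these 3 genes both arrays at 300 ng/ml lay above both arrays at 10 ng/ml. How often this holds over all features was not counted, and with 1 RNA sample at each dose the difference was not tested. In Pax5sz2, Blnk was at -3.41 ± 0.030.

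Genes that Pax5 is known to repress were divided. Of 29 tested, 1 was lower (1.31% of all features) and 1 was higher (0.628%). On both arrays 12 were below 0 and 7 above 0, beside 6968 and 7604 of all 19413 features. The median was -0.10, or 0.13 with median centring. Cd7, a T and NK cell surface protein, was at -1.74 and -1.39 (mean -1.57 ± 0.24). Adgrg3, an adhesion receptor, Ccr2 and Ccl9, a chemokine receptor and a chemokine of monocytes, were at -1.33 and -0.87, -1.26 and -0.84 and -0.82 and -1.18 on the Cy5 and Cy3 arrays, past 2-fold on 1 array each. The Fc receptor gamma chain gene Fcer1g was at -0.57 ± 0.20, Notch1 at -0.037 ± 0.18 and the cytokine receptor gene Flt3 at -0.022 ± 0.21. Il1rn, the antagonist of the interleukin-1 receptor, went the other way, at 1.45 and 1.17 (mean 1.31 ± 0.20), with another probe at 0.43.

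Several genes of innate and other blood cells that are lower at 300 ng/ml had smaller ratios of the same sign at 10 ng/ml. Il18r1, a receptor chain for interleukin-18 on NK and T cells, was at -1.67 and -1.80 (mean -1.74 ± 0.094) and at -3.52 ± 0.20 at the higher dose. Tyrobp, an adaptor of activating receptors in NK and myeloid cells, was at -1.25 and -1.46 (mean -1.35 ± 0.15) and then -3.39 ± 0.0091. Gbp8 was at -3.48 ± 0.42 at 300 ng/ml, and the decoy receptor gene Il1r2 was at -1.21 and -1.24 (mean -1.23 ± 0.019), with a second probe at -1.38 ± 0.022, and at -2.55 ± 0.077 at 300 ng/ml. For each of these the 10 ng/ml arrays lay between the control and the 300 ng/ml arrays, but they are named because they passed the size at 10 ng/ml. Other genes lower at 300 ng/ml were not lower at 10 ng/ml. Ctsg was at 0.038 ± 0.37 and then -2.98, Mpo at 0.027 ± 0.23 and -1.54, and Mcpt8 at 0.53 ± 0.22 and -1.71. In Pax5sz2, Il18r1 was at 0.024 ± 0.058 and Tyrobp at 0.10 ± 0.094, while Gbp8 was at -1.17 ± 0.17 and Il1r2 at -1.84 ± 0.0076. On the arrays labelled 1000 ng/ml, whose direction is not settled, Il18r1, Tyrobp, Gbp8 and Il1r2 were at 4.80 ± 0.33, 4.06 ± 0.098, 4.32 ± 0.0093 and 3.50 ± 0.065 as labelled, opposite in sign to the other doses.

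The lineage lists otherwise held few such genes, where 1.31% of all features were lower and 0.628% higher. Of 27 myeloid genes 2 were lower (Mitf and Tyrobp) and 1 higher (Cebpb), with a median of -0.21, and of 11 NK and innate lymphoid genes Il18r1 alone passed, with Nkg7 at -0.96 ± 0.052 and Il18rap, the partner chain of Il18r1, at -0.56 ± 0.0020. Cd7 was the one of 14 dendritic cell genes past the size, ahead of Itgax (-0.97 ± 0.15) and Bst2 (0.90 ± 0.24). No T lineage gene passed among 22 (Il2ra -0.98 ± 0.19, Hes1 0.51 ± 0.48, Cd28 -0.50 ± 0.062), nor any of 10 mast cell genes (Cpa3 -0.89 ± 0.035, Mcpt8 0.53 ± 0.22), 11 erythroid genes (Gp9 -0.56 ± 0.083, Tal1 0.36 ± 0.16) or 16 stem cell genes (Sox4 0.46 ± 0.061, Hoxa7 0.32 ± 0.022).

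The other B lineage lists had medians of -0.13 (20 pro-B identity genes, 2 lower), -0.054 (15 mature B cell genes, 1 lower) and 0.024 (9 plasma cell genes, 0 past the size). Of all features, 1.31% were lower. Ikzf1, the Ikaros factor needed for lymphoid development, was at -1.46 and -1.44 (mean -1.45 ± 0.012) with its single detected probe. Cd180, a Toll-like receptor homologue of B cells, was at -1.03 and -1.50 (mean -1.26 ± 0.33), with another probe at -0.23. None of 18 genes of recombination and the pre-B cell receptor passed the size with its brightest probe. On both arrays 10 were below 0 and 0 above 0, with a median of -0.25. Of all 19413 features, 6968 were below 0 on both arrays. The terminal transferase gene Dntt was at -0.97 and -1.01 on the Cy5 and Cy3 arrays, but its 2 other probes, at -1.11 and -1.31, passed the size. The receptor chain genes Cd79a and Cd79b were at -0.74 ± 0.0068 and -0.71 ± 0.068, and Rag1 at -0.39 ± 0.090. Class II genes had the lowest list median, -0.50 over 9 genes, with Cd74, the invariant chain, at -1.04 ± 0.33, H2-DMb1 at -0.91 ± 0.046 and H2-Oa at -0.90 ± 0.28. The arrays of that list differed, with medians of -0.70 and -0.30. Among mature B cell genes Cxcr5 was at -0.75 ± 0.014 and Ccr7 at 0.55 ± 0.059, and among plasma cell genes Derl3 was at -0.74 ± 0.30 and Sdc1 at 0.59 ± 0.025.

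**Figure D4:**
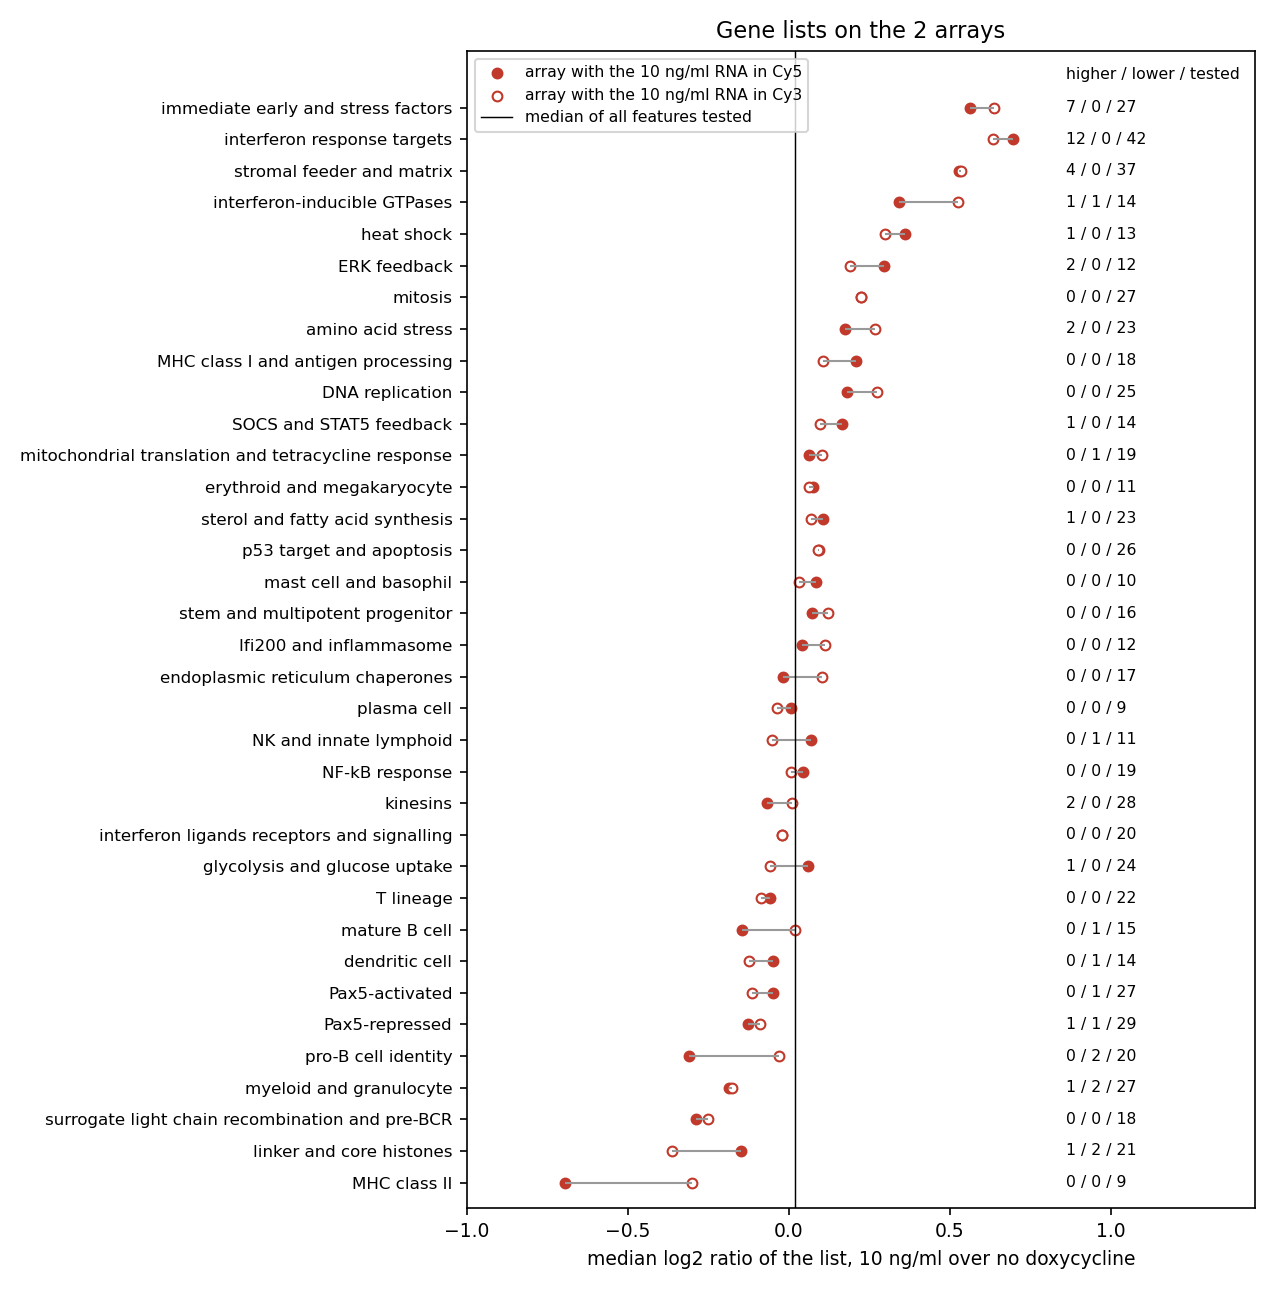
Median log2 ratio of 35 gene lists on the Cy5 array (filled) and the Cy3 array (open), with the numbers of members 2-fold or more higher with both dyes, at least 2-fold lower, and tested. The vertical line is the median of all features tested (0.017). Immediate early, interferon target and stromal lists lie at 0.5267 or more on both arrays, and MHC class II genes lie at -0.70 and -0.30.

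The other genes with the highest ratios were of several kinds. The mitotic kinesin genes Kifc1 and Kifc5b, near-identical neighbours on chromosome 17 whose probes may share signal, were at 2.18 and 2.69 (mean 2.43 ± 0.36) and 2.45 and 2.64 (mean 2.55 ± 0.14). They were the 2 of 28 kinesins past the size, where 0.628% of all features were higher, and the related Kifc2 was at -0.90 ± 0.42. Arl15, a small GTPase, was at 2.50 and 2.46 (mean 2.48 ± 0.025), while a second probe was at 0.15 ± 0.025. Copg2, a coat protein of Golgi vesicles, was at 2.24 and 2.34 (mean 2.29 ± 0.070), with further probes at 2.38 ± 0.030 and 0.0165 ± 0.24. These ratios recurred in the other RNAs, with Arl15 at 2.39 ± 0.27 at 300 ng/ml and 2.69 ± 0.0057 in Pax5sz2, and Copg2 at 2.29 ± 0.14 and 2.36 ± 0.026.

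In a further 4 of the highest genes the arrays differed. Ptprz1, a receptor phosphatase of the nervous system, was at 2.75 and 2.10 (mean 2.43 ± 0.46), with another probe at -0.58. Slc4a7, a bicarbonate transporter, was at 2.61 and 1.95 (mean 2.28 ± 0.47), with others at -0.55 and 0.30. Lars2, the mitochondrial leucyl-tRNA synthetase, was at 2.60 and 1.83 (mean 2.22 ± 0.54), and Grn, the progranulin gene, at 2.54 and 1.74 (mean 2.14 ± 0.57), with another probe at 0.54. In each the Cy5 array was higher by more than 0.6. The linker histone gene H1f10 had a wider gap, 2.62 and 1.32 on the Cy5 and Cy3 arrays, and its second probe was at 0.10.

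In some genes every detected probe passed the size. On the higher side these were 6 of the 41 genes with more than 1 detected probe: Ifit3, Id1, Arpc3, Fabp4, Cmpk2 and Rsad2. Id1, an inhibitor of E proteins, was at 1.80 and 1.78 (mean 1.79 ± 0.020), with a second probe at 1.81 ± 0.034. Arpc3, a subunit of the actin-nucleating Arp2/3 complex, was at 1.47 and 1.33 (mean 1.40 ± 0.10), with a second probe at 1.67 ± 0.044. Id1 was at 1.57 ± 0.20 at 300 ng/ml and 1.39 ± 0.028 in Pax5sz2, and Arpc3 at 1.17 ± 0.18 and 1.86 ± 0.25. In 27 of the 41 genes another probe lay within 0.5 of 0 or had the opposite sign.

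Single genes of metabolism and stress passed the size without their lists, where 0.628% of all features were higher. Hsph1, a chaperone of the heat shock response, was at 1.33 ± 0.10 (1 of 13 tested) and Hk2, the hexokinase of growing cells, at 1.22 ± 0.10 (1 of 24). Of 23 sterol and fatty acid synthesis genes, 1 passed the size. Short of the limit were Dnajb1 (0.58 ± 0.12), Hmox1 (0.64 ± 0.013), Slc2a1 (0.62 ± 0.11), Ldha (0.64 ± 0.53) and Soat1 (0.93 ± 0.22). Of 23 amino acid stress genes, 2 were past the size, Atf3 and Cebpb, which are also in the lists above, and Sesn2 was at 0.97 ± 0.12.

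The remaining lists had 0 members past the size. Among 17 chaperones of the endoplasmic reticulum Pdia4 was at 1.12 ± 0.35, Sdf2l1 at 0.79 ± 0.041 and Hyou1 at 0.73 ± 0.19. Among 26 p53 target and apoptosis genes Btg2, Sesn2 and Casp8 had the largest ratios, the last 0.82 ± 0.20. Of 19 NF-κB response genes, the chemokine genes Ccl5 and Ccl4 were at 0.97 ± 0.13 and 0.89 ± 0.00080 and the cytokine gene Il6 at 0.96 ± 0.080. The 27 mitosis genes had a median of 0.19, with the kinase gene Aurka at 0.89 ± 0.0054, the separase gene Espl1 at 0.76 ± 0.14 and the proliferation marker gene Mki67 at -0.87 ± 0.15. The 25 replication genes had a median of 0.14, with Tyms at 0.57 ± 0.17, Fen1 at 0.57 ± 0.049 and Rfc4 at 0.57 ± 0.072.

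The lower side was led by genes of no common function, and the level of the control RNA bears on them. Mitf, a factor of melanocytes, mast cells and osteoclasts, was at -2.58 and -2.41 (mean -2.49 ± 0.13), but its second probe was at 0.0012 ± 0.0048. L3mbtl2, a chromatin protein, was at -2.42 and -2.43 (mean -2.42 ± 0.0071), with another probe at 0.39. Afap1, an actin filament protein, was at -2.43 and -2.20 (mean -2.32 ± 0.16), and Srrm3, a neuronal splicing factor, at -2.36 and -2.26 (mean -2.31 ± 0.067), with other detected probes of Afap1 at 0.41 and of Srrm3 at 0.27 and 0.20. For these 4 genes the brightest probe stood alone.

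Stra6, a retinol transporter, was at -2.27 and -2.07 (mean -2.17 ± 0.14), and Pdia5, a disulfide isomerase, at -2.19 and -1.91 (mean -2.05 ± 0.20). Nat3, an arylamine acetyltransferase, was at -2.17 ± 0.51, and Inhbb, an activin subunit, at -2.07 ± 0.38. Hormad1, a meiotic chromosome protein, was at -2.04 ± 0.68 and Ppp1r9a, a neuronal actin-binding protein, at -1.98 ± 0.55. The arrays of Nat3, Hormad1 and Ppp1r9a were 0.7 or more apart, with the lower ratio on the Cy5 array.

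For 33 of the 255 lower features, the RNA labelled as the control was at least 4-fold (2 on the log2 scale) brighter on the 10 ng/ml arrays than the RNA of the same label on the Pax5sz2 arrays. This held for 39 of all 19411 features with both levels, so most of them were among the lower features, and for 0 of the 122 higher ones. The control of Mitf had a log2 level of 10.68 here and 6.68 on the Pax5sz2 arrays, and that of L3mbtl2 13.05 and 9.30. On the 300 ng/ml arrays the control level differed by that much for 0 of the lower features. Leaving these 33 out, 222 features were lower. Of the 12 lowest named genes, Atxn7l3 and H1f3 had like control levels on both pairs, and the other 10 were among the 33. The cause was not tested.

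**Figure D5:**
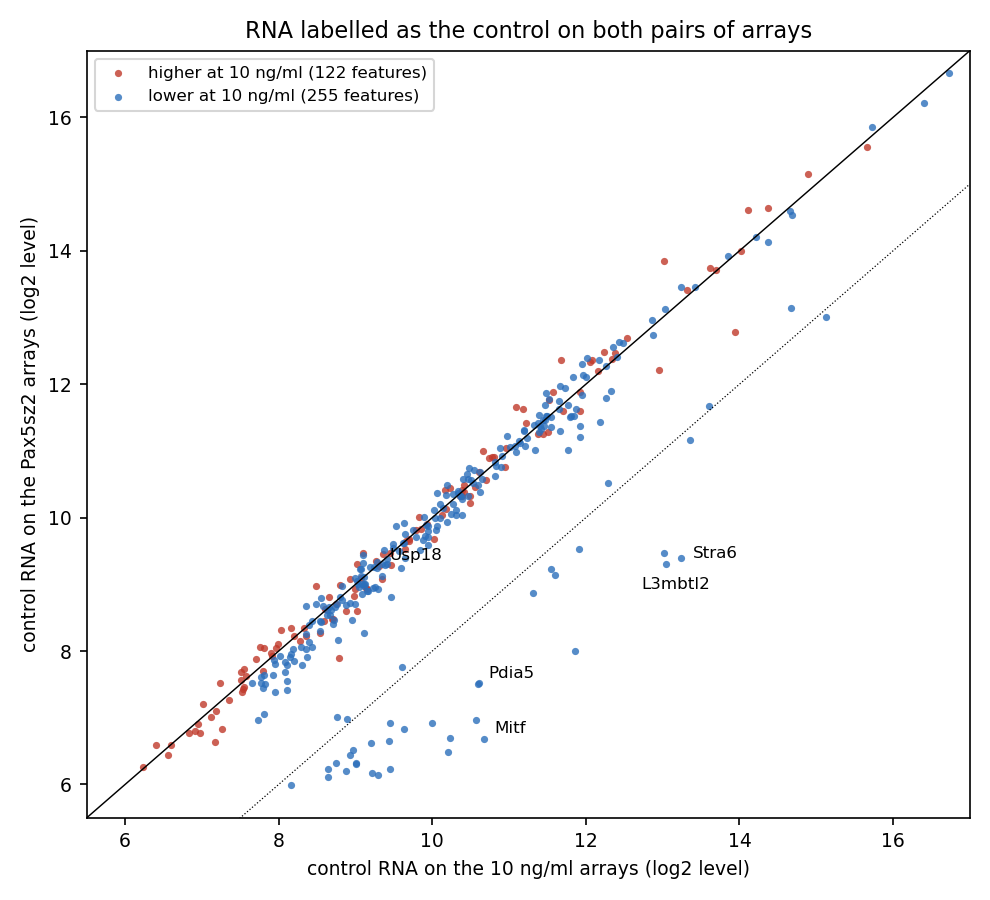
Log2 level of the RNA labelled as control on the 10 ng/ml arrays (horizontal) and on the Pax5sz2 arrays (vertical) for the 122 features higher (red) and the 255 lower (blue) at 10 ng/ml. The solid line marks equal levels and the dotted line a level 4-fold lower on the Pax5sz2 arrays; 33 blue points and 0 red points lie on or below the dotted line.

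Linker and core histones had a median of -0.27. Of 21 tested, 2 were lower (1.31% of all features) and 1 higher (0.628%), and 14 were below 0 on both arrays, as were 6968 of all 19413 features. H1f3 was at -2.06 and -2.36 (mean -2.21 ± 0.21), with a second probe at 0.36, and H1f4, another linker histone, at -1.35 and -1.13 (mean -1.24 ± 0.15) with its single probe. H4c1, H4c4, H1f1 and H1f5 lay between -0.84 ± 0.15 and -0.74 ± 0.037. In Pax5sz2 H1f3 and H1f4 were at -2.93 ± 0.055 and -3.58 ± 0.15. Clustered histone genes are alike in sequence, so that reads of single members are uncertain. Atxn7l3, a subunit of the SAGA deubiquitinase, was at -2.02 and -2.16 (mean -2.09 ± 0.10).

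Among lower genes with more than 1 detected probe, all probes passed in 6 of 74: Zfp51, Zfp52, Zfp53, Mirt1, Il1r2 and Tecpr1. The first 3 are neighbouring zinc finger genes on chromosome 17 (probes within chr17:21169947-21266527, mm8). Zfp52 was at -1.93 and -1.65 (mean -1.79 ± 0.20), with a second probe at -1.54 ± 0.037. Zfp51 was at -1.57 and -1.37 (mean -1.47 ± 0.14) and Zfp53 at -1.45 and -1.48 (mean -1.47 ± 0.017), with second probes at -1.13 ± 0.043 and -1.50 ± 0.21. The 3 genes are paralogs of similar sequence, and each was lower on both arrays with both of its probes. They were at -2.16 ± 0.35, -1.48 ± 0.16 and -1.22 ± 0.072 at 300 ng/ml and at -0.98 ± 0.27, -0.50 ± 0.14 and -0.44 ± 0.073 in Pax5sz2.

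Mirt1, a long noncoding RNA, was at -1.54 and -1.97 (mean -1.75 ± 0.30), with a second probe at -1.25 ± 0.19, and Tecpr1, a protein of autophagosome maturation, at -1.50 and -1.21 (mean -1.35 ± 0.20), with a second probe at -1.23 ± 0.18. In 60 of the 74 genes another probe lay within 0.5 of 0 or had the opposite sign. The mitochondrially encoded transcript CYTB, cytochrome b, was at -1.58 and -1.88 (mean -1.73 ± 0.21), and COX2, also mitochondrial, at -0.996 and -1.14 on the Cy5 and Cy3 arrays. The array annotation places the COX2 probe at chr1:24569175-24569234 (mm8), off the mitochondrial genome, so its assignment is uncertain. CYTB and COX2 stood apart in a list of 19 genes of mitochondrial translation and tetracycline response with a median of 0.11, in which the nuclear gene Atp5a1 was at 0.65 ± 0.21. CYTB was at -2.15 ± 0.31 at 300 ng/ml and -1.37 ± 0.079 in Pax5sz2.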

How the data were processed

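RNA of 1 culture with 10 ng/ml and 1 with 0 ng/ml doxycycline was compared on 2 Agilent mouse arrays with the dyes exchanged, per the labels. Agilent Feature Extraction 10.5.1.1 gave spot intensities and log10 ratios, per the file headers, with probe positions on mm8. The deposited intensity of each channel (mean signal and local background) was corrected with normexp (offset 50) and normalized by loess within each array in limma 3.58.1 (R 4.3.3). Control and outlier spots were left out. The deposited table of log10 ratios matches the scanner's ratios, has a median of 0 in each column, and served as an alternative, turned to doxycycline over control.

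Probes (41174) were assigned to 27715 features: 23374 by accession, 6733 by symbol and 2919 by synonym through RefSeq, 1244 by the array's own name, and 6904 kept as unnamed. The brightest probe stands for a gene. A feature was tested where 1 of the RNAs was well above background on both arrays.

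Replicates are a technical dye swap, so no p-value was computed. Lists and members were chosen with earlier results of these data known. Named are the Pax5 probes, the 12 highest and 12 lowest genes past the size on both arrays, up to 10 genes a side whose 2 or more detected probes all pass, and from each of the 35 lists every member past the size or up to 3 with the largest ratios; other genes named, among them further list members and defining markers, were chosen after their values were seen. A few genes within this rule were left out and are not reported here. The size rule was tested on simulated ratios with known changes. Scaling, background, filter, probe rule, size and single arrays were varied.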

Additional observations from a re-analysis of the deposited data

Results flagged for a closer look

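For 3 genes past the size at 10 ng/ml, both Pax5sz2 arrays lay past the size in the opposite direction. The differences were not tested, each RNA being 1 sample. Ptprz1 was at 2.43 ± 0.46 at 10 ng/ml and -1.06 ± 0.073 in Pax5sz2, but its other detected probe was at -0.58 and 0.29. Cd7 was at -1.57 ± 0.24 and 1.22 ± 0.14. Pdia5 was at -2.05 ± 0.20 and 1.93 ± 0.43. The control RNA of Pdia5 had a log2 level of 10.60 on the 10 ng/ml arrays and 7.4996 on the Pax5sz2 arrays, and that of Ptprz1 15.57 and 17.48, so for both genes the denominators differ. For Cd7 these levels were 8.36 and 8.68.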

How the results depend on the processing

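Against 122 higher and 255 lower features, median centring gave 75 and 75 (69 and 67 of them shared), Agilent's processed signals 398 and 595 (121 and 239 shared), the deposited ratios 354 and 651 (121 and 246 shared), and a 1.5-fold size 628 and 1047. Single arrays gave 188 to 191 higher and 370 to 495 lower. Both other detection filters left 122 and 255, and the median over a gene's probes gave 101 and 199. Among alternatives chosen after seeing the data, counting genes with several detected probes only where every one passed gave 87 and 186, and leaving out features of unlike control level 122 and 222.

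The median of all features was 0.017, and 0.078 with median centring and 0.10 with processed signals. The interferon target median (0.60) was 0.85 with median centring, 0.74 with processed signals, 0.71 with deposited ratios, 0.54 over all probes, and 0.63 to 0.70 on single arrays. The stromal median (0.57) was 0.76, 0.72 and 0.70 with the same scalings, and 0.5267 to 0.5337 on single arrays. The Pax5-activated median (-0.10) was 0.066, -0.012 and -0.041, and -0.12 to -0.048 on single arrays. The Pax5-repressed median (-0.10) was 0.13 with median centring, -0.062 with processed signals, -0.065 over all probes, and -0.13 to -0.090 on single arrays. The cause of these shifts was not tested.

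Of 71 named genes past the size, all 71 kept their direction with median centring, processed signals and deposited ratios. The other detection filters and the single arrays could not turn a direction, because they reuse the ratios by which the genes were counted. The median over probes turned Srrm3 to 0.20 and left 12 with a mean of the 2 arrays below 2-fold, since other probes of those genes differ. By the same mean, median centring left 3 below: Bst1 (-0.98), H1f4 (-0.95) and Il1r2 (-0.99). The rule of 2-fold on both arrays is stricter. Of all features counted by it, median centring kept 69 of 122 higher and 67 of 255 lower. No paired analysis was possible because each condition is 1 RNA sample and the labels carry no replicate numbers. Dim signal limits the ratios of genes such as Cxcl10, whose control level was 6.596, where the lowest control signals called well above background were 6.13 and 6.23.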

Other observations

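Genes named Zfp were counted after the neighbouring Zfp51, Zfp52 and Zfp53 had been seen among the lower genes. Of 306 tested, 13 were at least 2-fold lower on both arrays (4.25%, beside 1.31% of all features) and 1 was higher, with a median of -0.13. They encode zinc finger proteins, many of them paralogs whose probes can share signal.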
